A study of Mus musculus with 18 samples.

Results

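Microglia, the resident macrophages of the brain, were compared between male and female wild-type (WT) mice, using 5 male and 4 female RNA libraries out of 18. Members were the libraries labelled WT, and genes were described where they lie on the 19 autosomes, so that transcripts of the sex chromosomes and of mitochondrial DNA were left out. The other 9 libraries came from mice labelled as knockouts (KO) of Chd8, which encodes a chromatin remodeler, 4 female and 5 male. They served in the common estimate of spread and as a second male and female contrast. The labels give tissue (brain) and cell type (microglia), sex and genotype for every library. Age, strain, the method of purification, the number of mice per library, the kind of Chd8 allele and also the meaning of the prefix HX that all titles share stay unstated in the sources used here. RNA was counted by a bulk form of MARS-seq, in which 3′ ends of polyadenylated RNA are primed and each captured molecule receives a unique molecular identifier (UMI), so that copies made by amplification can be merged. Levels are given as UMI counts per 1000000 (CPM), scaled by the trimmed mean of M values (TMM). Log2 fold changes are male over female and carry the fit's standard error after ±. Values of single libraries are listed in the order of replicates 34, 39, 31 and 30 for female WT and 13, 37, 10, 11 and 14 for male WT.

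Microglia arise from yolk sac progenitors, live on signals through the receptor Csf1r and on TGF-beta, and express a core set of genes such as P2ry12, Tmem119 and Sall1 that sets them apart from blood-derived macrophages. When they are disturbed, in the brain or while tissue is taken apart into single cells, they switch on immediate early genes within minutes, among them the AP-1 subunits Fos and Jun, and heat shock chaperones. Male and female microglia of rodents are known to differ in inflammatory and antigen presentation genes, to a degree that depends on age. Neutrophils, monocytes and the macrophages of the brain's borders share surface markers with microglia and are a known admixture of preparations from whole brain.

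The labels of the WT libraries were first set against sex-linked transcripts. Xist, the RNA that coats the inactive X chromosome, was at 44.4 to 103 CPM in female WT and at 0 to 0.872 CPM in male WT, and the Y-linked genes Ddx3y, Eif2s3y, Kdm5d and Uty summed to 0 to 0.758 and 29.3 to 52.4 CPM. One KO library went against its label: the library labelled female KO replicate 33 held both Xist (22.9 CPM) and the 4 Y-linked genes (20.6 CPM), so KO results are given with and without it. UMI totals of WT libraries ran from 458075 to 3441103. The labels do not say whether libraries of a group came from separate mice, so p-values measure the spread between these libraries, which may be technical.

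The male and female WT libraries also differed in reads per UMI. This measure, the number of sequenced reads behind each counted molecule, was 7.25, 2.96, 6.62 and 7.26 in female WT and 1.89, 1.79, 1.80 and then 3.12 and 2.97 in male WT. Among all 18 libraries the values fell into 3 ranges with gaps between them, of 1.79 to 1.89, 2.94 to 3.12 and 5.52 to 7.26. Of female WT libraries 3 lay in the highest range, which held no male library, the lowest held 3 male WT libraries and no female WT library, and the middle range held female WT replicate 39 and male WT replicates 11 and 14. The UMI total was 2.32-fold higher in male WT, with no overlap (p = 0.0159 by an exact two-sided permutation test, which 5 against 4 libraries cannot go below, adjusted p = 0.0635 over 4 library measures). Reads per UMI, which define the ranges and are given here as a description, were 2.60-fold higher in female WT. More genes were detected in male WT, at 15761 ± 541 against 14457 ± 1182 (SD, n = 5 and 4, exact permutation test, p = 0.0476, adjusted p = 0.0635). Sex and range can thus hardly be told apart within WT, and comparison values below come from the middle range alone and from a fit with the range as a factor (the range-adjusted fit). That fit takes the effect of range from libraries of 1 sex and genotype that lie in different ranges. For the highest range these are female WT replicate 39 against the other female WT libraries, and female KO replicate 33 against the other female KO libraries. The sex label of replicate 33 is in doubt, and the range-adjusted fit was not run without it. The middle range alone has 1 female WT library, which is assumed to vary like the other groups of that range.

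**Figure D1:**
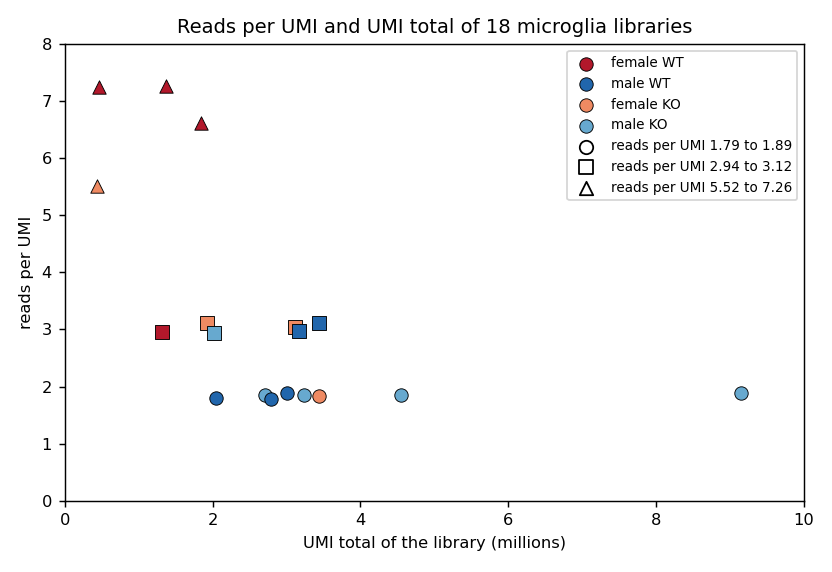
Reads per UMI (vertical axis) against the UMI total in units of 1000000 (horizontal axis) of the 18 libraries, with 1 point per library, colour for the group and marker shape for the range of reads per UMI. The 3 female WT libraries at 6.62 to 7.26 stand above all male libraries, and female WT replicate 39, at 2.96, lies at the level of male WT replicates 11 and 14.

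Of 10616 autosomal genes tested, 1814 (17.1%) differed between male and female WT at an adjusted p under 0.05 (edgeR quasi-likelihood test). In male WT 733 (6.9%) were higher and 1081 (10.2%) lower. These shares of all genes tested are the background for the counts of each gene list below. The lower genes were the more strongly changed, with 250 at least 4-fold lower against 29 at least 4-fold higher. All male WT libraries lay above all female WT libraries in 930 genes (8.76%) and below them in 985 (9.28%). Without female WT replicate 30 the count of called genes fell to 1041. With the range of reads per UMI as a factor 258 genes (2.43%) were called, 78 higher (0.735%) and 180 lower (1.7%). That count was 493 without female WT replicate 39 and 168 and 110 without male WT replicates 11 and 14. Without the 4 libraries at 5 or more reads per UMI 276 genes (2.39%) were called. On read counts without UMI correction 1133 (9.64%) were called, 451 higher (3.84%) and 682 lower (5.8%).

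Because the middle range shares no library with the rest, the direction of change could be compared between separate libraries. Outside the middle range, in 3 female libraries at the highest range and 3 male ones at the lowest, 571 genes (5.13%) were called higher and 894 (8.03%) lower in male WT. Among those that lie on autosomes and were tested in both fits, 567 were higher, and 494 of them (87.1%) were also higher in male WT in the middle range, where 52.0% of all genes were. Of 780 lower genes 637 (81.7%) were also lower in the middle range, where 48.0% of all genes were. The sizes were smaller there, with a median log2 fold change of 0.44 in the middle range against 0.98 outside it for the higher genes and -0.57 against -1.55 for the lower ones. In the middle range alone 39 genes were called higher (0.36%) and 164 lower (1.51%), of which 32 and 127 were among the genes called outside it in the same direction, and 0 were called there in the opposite direction.

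Defining microglial genes were abundant in both sexes. Csf1r, the receptor on which microglial survival depends, was at 7199, 7094, 8284 and 8586 CPM in female WT and 8659.6, 8836, 8578, 8211 and 7888 CPM in male WT, and its difference did not pass (log2 fold change 0.11 ± 0.17, edgeR adjusted p = 0.69). Tmem119, a membrane protein of resident microglia (log2 fold change 0.18 ± 0.15, edgeR adjusted p = 0.432), and the fractalkine receptor Cx3cr1 (log2 fold change -0.30 ± 0.17, edgeR adjusted p = 0.247) also did not pass. The groups overlapped in each of these 3 genes.

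Of 39 tested genes of the microglial identity list 12 were called higher and 1 lower in male WT, with a median log2 fold change of 0.20 against -0.01 over all autosomal genes tested, of which 6.9% were called higher and 10.2% lower. P2ry12, the ADP receptor with which microglia sense injury, was at 1023, 1441, 1295 and 828 CPM in female and 1425, 2109.6, 1978, 2382 and 1881 CPM in male WT, where the male value of replicate 13 lay just below the female value of replicate 39 (log2 fold change 0.77 ± 0.24, edgeR adjusted p = 0.0285). Sall1, a transcription factor of microglial identity, was at 177 to 269 CPM in female and 328 to 380.4 CPM in male WT, without overlap (log2 fold change 0.72 ± 0.18, edgeR adjusted p = 0.00864). The fructose transporter Slc2a5 (log2 fold change 0.53 ± 0.11, edgeR adjusted p = 0.0018) and the lectin Siglech (log2 fold change 0.49 ± 0.14, edgeR adjusted p = 0.0187) rose with all male WT libraries above all female ones. Olfml3, a secreted glycoprotein, was the 1 member that fell (log2 fold change -0.53 ± 0.12, edgeR adjusted p = 0.00405). In the range-adjusted fit Siglech alone of the 39 was called, and in the middle range 0 were, where P2ry12 had a log2 fold change of 0.58 and Sall1 of 0.33. The call of P2ry12 was lost in 10 of 22 alternatives, among them read counts and the fits without female WT replicate 30 or 34 (edgeR adjusted p = 0.108 and 0.0804) or male WT replicate 11 or 37 (edgeR adjusted p = 0.0632 and 0.0553). That of Siglech was lost without female WT replicate 30 (edgeR adjusted p = 0.0705).

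The AP-1 subunits were among the clearest differences. AP-1 is a dimer of Jun and Fos proteins that activates transcription after growth factor, cytokine and stress signals. Jun (chr4:95049034-95052222, minus strand, mm10) was at 327, 404, 393 and 532 CPM in female WT and 1652, 1008, 1764, 1527 and 1526 CPM in male WT (log2 fold change 1.84 ± 0.18, edgeR adjusted p = 1.31e-06). All male libraries lay above all female ones, and the lowest male value, of replicate 37, was still above the highest female value, of replicate 30. Junb was at 313, 479, 638 and 539 CPM in female and 2571, 1770.2, 2777, 2191 and 2566 CPM in male WT (log2 fold change 2.26 ± 0.27, edgeR adjusted p = 9.63e-06). Fos was at 161, 235, 153 and 327 CPM in female and 755, 574, 1057, 852 and 805 CPM in male WT (log2 fold change 1.87 ± 0.25, edgeR adjusted p = 4.47e-05). Neither gene overlapped between the sexes. Jund rose by 1.56 ± 0.18 (edgeR adjusted p = 5.23e-06) and Fosb by 2.13 ± 0.41 (edgeR adjusted p = 0.00125), while the other 7 tested members, of 12, ran from -0.45 to 0.23 and did not pass. The same 5 genes were called higher with the range of reads per UMI as a factor and in the middle range alone, where the log2 fold changes were 1.93 for Jun, 2.32 for Junb and 1.83 for Fos.

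Other immediate early genes rose beside them. Egr1, a zinc finger transcription factor induced within minutes of stimulation, was at 96.3, 71.2, 71.4 and 95.2 CPM in female and 225, 165, 328, 302 and 264 CPM in male WT, without overlap (log2 fold change 1.64 ± 0.20, edgeR adjusted p = 1.3e-05). The endosomal GTPase Rhob was at 996 to 1190 CPM in female and 1776 to 2550.4 CPM in male WT (log2 fold change 1.01 ± 0.13, edgeR adjusted p = 1.62e-05). The antiproliferative gene Btg2 rose by 0.96 ± 0.16 (edgeR adjusted p = 0.000365) and Ier5 by 2.12 ± 0.42 (edgeR adjusted p = 0.00164). Of 16 tested genes of the Egr, Nr4a and Klf list 7 were called higher and 2 lower (Nr4a1 and Gadd45b). With the range as a factor Egr1 and Rhob were called and none was lower, and the log2 fold change of Btg2 was 0.62 (edgeR adjusted p = 0.13) and that of Ier5 1.41 (edgeR adjusted p = 0.271). In the middle range Egr1, Ier2, Btg2 and Rhob were called higher and Nr4a1 lower, with 0.91 for Btg2 (edgeR adjusted p = 0.0411) and 1.88 for Ier5 (edgeR adjusted p = 0.26).

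Feedback inhibitors, which end inflammatory and stress signals, were higher in male WT in 8 of 19 tested members and lower in 1 (Bcl3). Zfp36, which binds AU-rich elements and speeds the decay of cytokine mRNA, was at 231, 623, 207 and 389 CPM in female and 1276, 1053, 1364, 1466 and 1291 CPM in male WT (log2 fold change 1.82 ± 0.26, edgeR adjusted p = 7.36e-05). Female replicate 39, the only one in the middle range, was the highest of the 4 and still below every male library. Socs3, an inhibitor of cytokine receptor signalling through STAT3, was at 89.6, 121, 82.6 and 101 CPM in female and 294, 185, 337, 279 and 264 CPM in male WT (log2 fold change 1.46 ± 0.16, edgeR adjusted p = 4.1e-06). Zfp36l1, a relative of Zfp36, was at 55.7 to 84.04 CPM in female and 278 to 364 CPM in male WT (log2 fold change 2.14 ± 0.30, edgeR adjusted p = 6.46e-05). These 3 genes were also called with the range as a factor and in the middle range. The MAP kinase phosphatase Dusp1 (log2 fold change 2.25 ± 0.35, edgeR adjusted p = 0.000166) and the glucocorticoid-induced kinase Sgk1 (log2 fold change 1.61 ± 0.25, edgeR adjusted p = 0.00016) were called in the middle range but not with the range as a factor (edgeR adjusted p = 0.0798 and 0.0994). Nfkbia, the inhibitor of NF-kappaB, rose by 0.77 ± 0.18 (edgeR adjusted p = 0.00528) and had 0.29 in the middle range, where it was not called.

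Heat shock chaperones rose in part. Hspa1a, an inducible Hsp70 that refolds damaged proteins, was at 44.8, 51.2, 30.3 and 24.8 CPM in female WT and 552, 295, 164, 333 and 166 CPM in male WT (log2 fold change 3.05 ± 0.47, edgeR adjusted p = 0.000139). The near-identical Hspa1b, its neighbour on chromosome 17, was at 15.7, 44.8, 15.2 and 13.9 and 477, 282, 149.7, 248 and 141 CPM (log2 fold change 3.50 ± 0.56, edgeR adjusted p = 0.000214), and reads of the pair may be split between the copies by the authors' counting. All male libraries lay above all female ones in both genes, and male libraries themselves spread over more than 3-fold. The small chaperone Hspb1 rose by 2.50 ± 0.47 (edgeR adjusted p = 0.00101) and the Hsp40 Dnajb1 by 1.15 ± 0.22 (edgeR adjusted p = 0.00144). Hspe1, the mitochondrial co-chaperonin, fell by 0.78 ± 0.13 on the log2 scale (edgeR adjusted p = 0.000343). Of 20 tested chaperones 5 were called higher and 2 lower. In the range-adjusted fit Hspa1a and Hspb1 were called, and Hspa1b had a log2 fold change of 2.16 (edgeR adjusted p = 0.102). In the middle range Hspa1a and Hspa1b were called, the latter at 2.13 (edgeR adjusted p = 0.0277), and Hspb1 was not (1.91, edgeR adjusted p = 0.208). Dnajb1 and Hspe1 were called in neither.

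**Figure D2:**
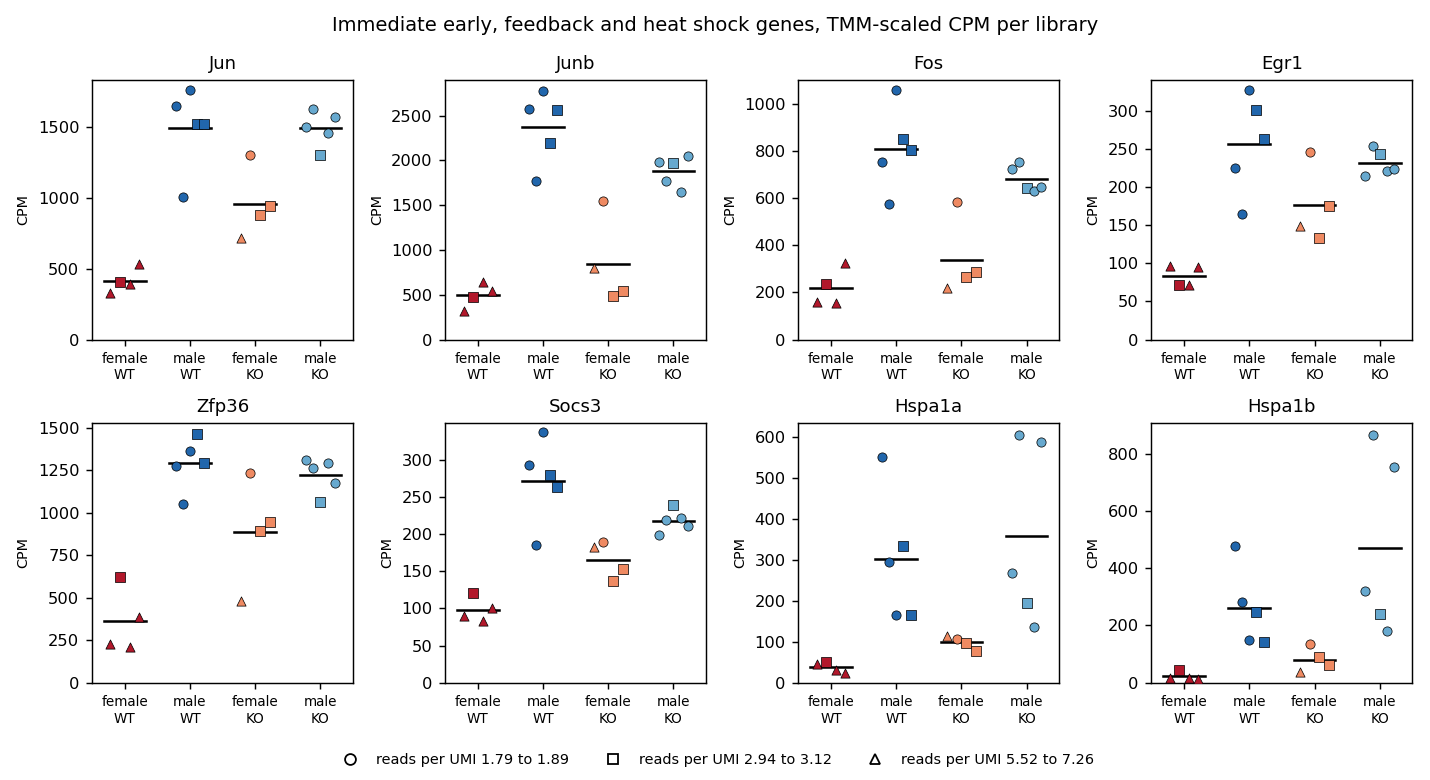
CPM (vertical axes, from 0) of 8 genes in all 18 libraries by group, with 1 point per library, a bar for the group mean and marker shape for the range of reads per UMI. In all 8 panels every male WT library lies above every female WT library, whichever the range. Female KO replicate 16, the only female library at 1.79 to 1.89 reads per UMI, is the highest female KO point for Jun, Junb, Fos, Egr1, Zfp36, Socs3 and Hspa1b.

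Only 1 female library lay in the lowest range, female KO replicate 16, and it allows a view of these genes at the reads per UMI of most male libraries. Its Jun level was 1303 CPM, against 877 and 941 CPM in female KO replicates 1 and 7 of the middle range and 1305 to 1628 CPM in male KO. Its Fos level was 583 CPM, against 267 and 285 CPM in those replicates and 632 to 754 CPM in male KO. Its Zfp36 level of 1236 CPM lay inside the male KO range of 1064 to 1313 CPM, and so did its Egr1 level of 247 CPM inside 215 to 254 CPM. Jun and Fos of this library were nearer to the male KO libraries than those of replicates 1 and 7 were. Its Hspa1a level was 107 CPM, against 97.9 and 78.0 CPM in those replicates and 135 to 605 CPM in male KO. As 1 library it has no replicate check. Among males, KO replicate 9 of the middle range had 1305 CPM for Jun and 644 CPM for Fos. Male WT replicates 11 and 14 of that range had 1527 and 1526 CPM for Jun, against 1652, 1008 and 1764 CPM in replicates 13, 37 and 10 of the lowest range.

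The start regions of some of the genes described here hold letters that are known as binding sequences of signal-dependent factors. Of these regions 4 are shown, with 1 gene that rose and 1 that fell for the cAMP response element and for a kappaB sequence. Windows come from RefSeq promoters of GRCm38.p6 (250 bases before to 50 after a gene's start), read 5′ to 3′ on the gene's strand, with the match in capitals. The cAMP response element was searched as TGACGTCA and the inner part of a kappaB sequence as GGAATTTCC, on both strands, and neither contains the other.
Dusp1, higher in male WT, chr17:26508597-26508626, minus strand: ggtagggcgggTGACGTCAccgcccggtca
H2-Aa, lower in male WT, chr17:34287879-34287908, minus strand: gctggcaacttTGACGTCAtcacaagagaa
Nfkbia, higher in male WT, chr12:55492658-55492686, minus strand: tgactggcttGGAAATTCCccgcgcctga
Cxcl2, lower in male WT, chr5:90903793-90903821, plus strand: ctgagctcagGGAATTTCCctggtccccg
The Nfkbia match is on the other strand. Btg2, higher in male WT, and Meg3, lower, also held TGACGTCA. TGACGTCA was present in 3.45% of the 579 promoters found for genes higher in male WT, in 4.12% of the 728 found for lower genes and in 3.74% of the 8040 found for all autosomal genes tested. GGAATTTCC was present in 4, 3 and 37 of them (0.691%, 0.412% and 0.46%). An AP-1 sequence and a heat shock element were searched as well. In the same order, their shares were 4.66%, 5.77% and 4.2% for AP-1 and 0.518%, 1.1% and 0.634% for the heat shock element. The shares of TGACGTCA lay near that of all tested genes in both directions. Those of GGAATTTCC and of the heat shock element rest on few promoters, and a match is a stretch of letters, not a measured site.

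Genes of neutrophils, monocytes and border macrophages were lower in male WT. In bulk RNA, fewer cells of a type and less RNA per cell cannot be told apart. Neutrophil markers summed to 8916, 3893, 3182 and 17263 CPM in female WT and 1729, 1875, 1061, 934 and 1381 CPM in male WT (sums are scaled by the library total alone), 5.95-fold higher in female WT without overlap (p = 0.0159 by an exact two-sided permutation test, again the smallest possible, adjusted p = 0.0249 over 11 lists). Female replicate 30 held the highest sum by far, and without it the male over female ratio was 0.262 in place of 0.168. The largest part of the male sum came from Csf3r, at 651 CPM over the pooled male WT libraries and 817 CPM over the female ones. Of 20 listed neutrophil genes 15 passed the filter on low counts, and all 15 of those were called lower. The filter asks for counts in as many libraries as the smallest group holds, so a gene can pass on female libraries alone. Elane, for instance, passed with 23 UMIs in female and 4 in male WT. The count of 15 lower genes is thus partly set by the filter. S100a8, a calcium-binding alarmin of neutrophil cytosol, was at 1122, 258, 557 and 2911 CPM in female and 92.5, 116, 38.5, 30.4 and 90.9 CPM in male WT (log2 fold change -4.04 ± 0.79, edgeR adjusted p = 0.00151). S100a9, its partner, had -3.37 ± 0.64 (edgeR adjusted p = 0.00108). Retnlg, a marker of mature neutrophils, was at 466, 174, 108 and 943 CPM in female and 42.04, 31.9, 10.5, 10.1 and 28.1 CPM in male WT (log2 fold change -4.08 ± 0.56, edgeR adjusted p = 4.95e-05). The granule genes Lcn2 (-3.45 ± 0.51) and Ltf (-3.54 ± 0.53) fell alike (edgeR adjusted p = 0.000107 and 0.000122). With the range as a factor 7 of the 15 were called, and S100a8 had a log2 fold change of -1.13 (edgeR adjusted p = 0.479). In the middle range 10 were called. S100a9 was called in neither (-1.50 and -2.15, edgeR adjusted p = 0.307 and 0.0949), nor was S100a8. Stfa2 and Stfa2l1 had 0 UMIs in female WT and Stfa1 had 0 in male WT.

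Monocyte markers summed to 1137, 901, 327 and 962 CPM in female WT and 135, 139.7, 94.1, 99.1 and 114 CPM in male WT, 7.15-fold higher in female WT (p = 0.0159 by exact permutation, adjusted p = 0.0249). Female replicate 31 held the lowest female sum and was still above every male library. Of 18 listed genes 15 passed the filter and 14 of those were called lower. Here too a gene can pass on female libraries alone, so this count is partly set by the filter. Ly6c2, which marks classical monocytes, was at 98.5, 68.8, 18.5 and 86.7 CPM in female and 15.8, 8.502, 5.01, 7.82 and 9.57 CPM in male WT (log2 fold change -2.76 ± 0.37, edgeR adjusted p = 3.5e-05). Ccr2, the chemokine receptor that brings monocytes out of the marrow, was at 44.8, 62.4, 10.1 and 21.7 CPM in female and 3.36, 6.38, 8.51, 5.502 and 3.19 CPM in male WT (log2 fold change -2.65 ± 0.43, edgeR adjusted p = 0.000246). Plac8, abundant in monocytes, had the steepest fall of the list and was at 20.2 to 66.4 CPM in female and 0.673 to 4.61 CPM in male WT (log2 fold change -4.37 ± 0.56, edgeR adjusted p = 2.39e-05). The calcium-binding S100a6 fell by 3.21 ± 0.33 on the log2 scale (edgeR adjusted p = 1.95e-06). In the range-adjusted fit 11 of the 15 were called lower, and in the middle range 12 were.

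Border-associated macrophages line meninges, vessels and choroid plexus. Their markers summed to 1701, 1409, 1287 and 1435 CPM in female and 1062, 1139, 925, 975 and 940.5 CPM in male WT, 1.45-fold higher in female WT (p = 0.0159 by exact permutation, adjusted p = 0.0249), and most of the male sum came from Stab1, at 889 CPM over the pooled male WT libraries. Of 16 tested members of 20 listed, 12 were called lower, with the same limit from the filter. Cbr2 (chr11:120729489-120732114, minus strand, mm10), a carbonyl reductase, was at 78.4, 63.2, 27.5 and 89.8 CPM in female and 6.39, 7.44, 5.01, 10.7 and 7.65 CPM in male WT (log2 fold change -3.03 ± 0.27, edgeR adjusted p = 7.91e-07). Pf4, a chemokine, was at 78.4, 114, 50.6 and 115 CPM in female and 13.5, 18.4, 22.5, 22.3 and 24.9 CPM in male WT (log2 fold change -2.14 ± 0.24, edgeR adjusted p = 4.77e-06). The scavenger receptor Cd163 (-2.93 ± 0.40), the transglutaminase F13a1 (-2.66 ± 0.38) and the lectin Clec10a (-2.60 ± 0.30) fell as well (edgeR adjusted p = 4.37e-05, 6.32e-05 and 7.56e-06). None of these genes overlapped between the sexes. With the range as a factor 9 were called and in the middle range 6, where Cbr2 had -2.76 and Pf4 -2.26. Cd163 was not called there (-2.14, edgeR adjusted p = 0.0995).

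Choroid plexus and ependymal markers went the other way, at 139.7, 36.4, 207 and 165 CPM in female and 507, 997, 839, 607 and 423 CPM in male WT, 4.92-fold higher in male WT (p = 0.0159 by exact permutation, adjusted p = 0.0249). Nearly all of it was Ttr, the thyroid hormone carrier made by choroid plexus, at 129.9, 32.8, 205 and 169.6 CPM in female and 486, 934, 816, 568 and 406 CPM in male WT (log2 fold change 2.24 ± 0.48, edgeR adjusted p = 0.00272). Enpp2, a lysophospholipase also made there, rose by 1.997 ± 0.55 on the log2 scale (edgeR adjusted p = 0.0153), and was not called with the range as a factor, in the middle range or without female WT replicate 30 (edgeR adjusted p = 0.175, 0.229 and 0.0665). Of 11 listed genes 3 were tested, and Rarres2, Foxj1, Tmem212, Kl and Ccdc153 had 0 UMIs in female WT. Neuronal markers summed to 266, 59.1, 64.1 and 61.2 CPM in female and 34.3, 19.7, 24.4, 47.7 and 27.1 CPM in male WT (p = 0.0159 by exact permutation, adjusted p = 0.0249), with female replicate 34 far above the rest (a male over female ratio of 0.272 with it and 0.499 without it). Endothelial and mural markers, mostly Bsg, and mast and dendritic cell markers, mostly the microglial gene Siglech, summed 1.24-fold and 1.39-fold higher in male WT (exact permutation test, p = 0.0159 and adjusted p = 0.0249 for each). Of the 4 endothelial and mural genes tested 0 were called higher and 2 lower (Ly6a and Vtn), and of the 5 mast and dendritic cell genes Siglech was called higher and Flt3 lower. Sums of lymphocyte, erythroid, astrocyte and oligodendrocyte lineage markers overlapped between the sexes, with exact permutation adjusted p-values of 1, 1, 0.175 and 0.737. Most of the lymphocyte sum came from Ighm, at 798 and 945 CPM over the pooled female and male WT libraries. Most of the oligodendrocyte lineage sum came from Trf, at 1426 and 1505 CPM, so these sums describe the other members poorly. Igkc, an antibody light chain, was nonetheless at 502, 92.8, 8.99 and 58.8 CPM in female and 1.502 to 2.35 CPM in male WT (log2 fold change -6.07 ± 1.39, edgeR adjusted p = 0.00492).

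**Figure D3:**
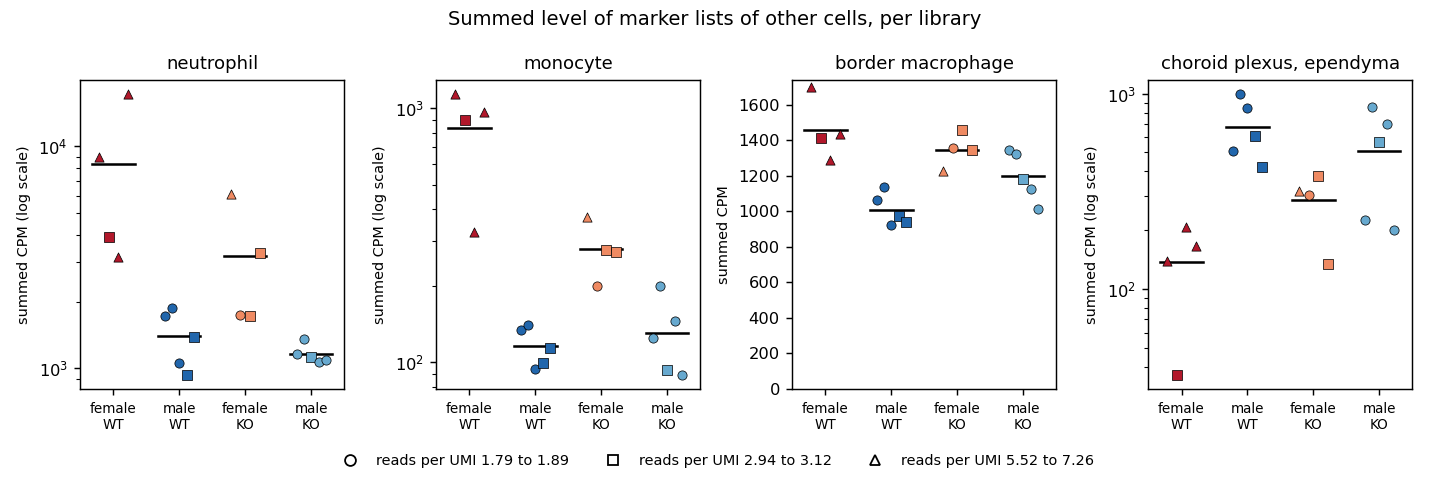
Summed CPM of 4 marker lists (vertical axes, log scale except for border macrophages, which starts at 0) in the 18 libraries by group, with 1 point per library, a bar for the group mean and marker shape for the range of reads per UMI. Every female WT library lies above every male WT library for neutrophil, monocyte and border macrophage markers and below them for choroid plexus and ependymal markers.

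Antigen presentation through MHC class II, by which macrophages show peptides to helper T cells, was lower in male WT. Cd74, the invariant chain that guides class II molecules, was at 3182, 2984, 1988 and 2863 CPM in female and 425, 357, 470.01, 679 and 578 CPM in male WT (log2 fold change -2.45 ± 0.25, edgeR adjusted p = 2.09e-06). H2-Aa, a class II alpha chain, was at 1446, 1884, 1098 and 1399.8 CPM in female and 424, 412, 649.7, 529.6 and 423 CPM in male WT (log2 fold change -1.58 ± 0.19, edgeR adjusted p = 8.62e-06). The beta chains H2-Ab1 (-1.69 ± 0.19) and H2-Eb1 (-1.98 ± 0.21) and their master regulator Ciita (-1.58 ± 0.27) fell with them (edgeR adjusted p = 5.07e-06, 4.1e-06 and 0.000369). No male library reached a female one in any of the 5. These 5 of 13 tested class II genes were called lower and 0 higher, and the same 5 were called with the range as a factor and in the middle range, where H2-Aa had -1.97 and Cd74 -2.24. Of 19 class I genes 3 were called lower, a share near the 17.1% called over all genes, among them B2m, the light chain, at 2764 to 4276 CPM in female and 1325 to 2776 CPM in male WT (log2 fold change -0.90 ± 0.18, edgeR adjusted p = 0.00175), where male replicate 11 overlapped the female libraries. B2m was not called in the middle range (-0.68, edgeR adjusted p = 0.314). Monocytes and border macrophages also make class II molecules, and the sums of their markers were 7.15-fold and 1.45-fold higher in female WT. Their part in these differences was not tested.

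Interferon-induced genes were lower in 15 of 36 tested members and higher in 0, with a median log2 fold change of -0.52. Ifi27l2a was at 291, 245, 184 and 211 CPM in female and 63.6, 63.1, 107, 71.8 and 79.7 CPM in male WT (log2 fold change -1.58 ± 0.19, edgeR adjusted p = 9.63e-06). The 2-5A synthetases Oas2 (-1.94 ± 0.29) and Oas3 (-2.84 ± 0.48), which activate RNA decay on sensing double-stranded RNA, fell too (edgeR adjusted p = 0.000107 and 0.000359). In the range-adjusted fit 4 were called, and in the middle range 7. Of 5 IFITM genes, which block virus entry at endosomes, 4 were lower. Ifitm3 was at 300.04, 243, 131 and 231 CPM in female and 24.9, 25.9, 35.5, 35.3 and 36.99 CPM in male WT (log2 fold change -2.80 ± 0.31, edgeR adjusted p = 4.1e-06), and Ifitm2 at 37.1 to 150.02 CPM against 6.66 to 12.04 CPM (log2 fold change -3.33 ± 0.33, edgeR adjusted p = 1.84e-06). Both were called with the range as a factor and in the middle range. Neutrophils and monocytes express these 2 genes as well, and female replicate 31, with the lowest neutrophil and monocyte sums of the 4, had the lowest female level of each. Female replicate 30, with the highest neutrophil sum, had the highest level of neither. The part of neutrophils and monocytes in the difference was not tested.

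Genes of the disease-associated state, which microglia enter around plaques and dying cells, were lower in male WT in 11 of 31 tested members and higher in 3 (Ctsb, Timp2 and Gusb). Apoe (chr7:19696109-19699188, minus strand, mm10), a lipid carrier, was at 4731, 6925, 3200.04 and 5907 CPM in female and 1490.2, 1768, 1825, 1804 and 2055 CPM in male WT (log2 fold change -1.54 ± 0.17, edgeR adjusted p = 4.1e-06). Lyz2, the macrophage lysozyme, was at 2022, 2492, 1159 and 2317 CPM in female and 514, 581, 519, 574 and 591 CPM in male WT (log2 fold change -1.84 ± 0.17, edgeR adjusted p = 8.12e-07). Axl, a receptor tyrosine kinase for apoptotic cells, was at 76.1, 78.4, 75.3 and 85.2 CPM in female and 19.8, 25.2, 23.5, 25.8 and 23.6 CPM in male WT (log2 fold change -1.74 ± 0.17, edgeR adjusted p = 1.59e-06). None of these 3 genes overlapped between the sexes. Lgals3, a galectin, fell by 2.28 ± 0.28 (edgeR adjusted p = 1.75e-05) and the surface glycoprotein Cd52 by 1.62 ± 0.19 on the log2 scale (edgeR adjusted p = 7.43e-06). Marker sums of neutrophils, monocytes and border macrophages were 5.95-fold, 7.15-fold and 1.45-fold higher in female WT. The part of those cells in these differences was not tested. With the range as a factor 7 of the 31 were lower and 0 higher, and in the middle range Apoe, Axl, Lgals3, Lyz2 and Cd52 were.

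Most chemokine genes, whose products call in immune cells, and some cytokine genes were lower in male WT. Of 19 tested genes of the Tnf, interleukin-1 and inflammasome list 4 were called lower (Il1b, Il1rn, Tgfb1 and Casp1), 1 higher (Il18) and 14 not, with a median log2 fold change of -0.08. Il1b, which encodes interleukin-1 beta, was at 80.6, 56.8, 24.2 and 44.9 CPM in female and 11.8, 12.04, 7.51, 9.85 and 8.93 CPM in male WT (log2 fold change -2.24 ± 0.25, edgeR adjusted p = 4.77e-06). Il1rn, its natural antagonist, had -3.34 ± 0.47 (edgeR adjusted p = 6.29e-05). Of 20 tested chemokine and chemokine receptor genes 13 were lower and 0 higher, with a median log2 fold change of -1.33. Ccr2, also on the monocyte list, and Pf4, also on the border macrophage list, were among the 13. Neutrophil, monocyte and border macrophage marker sums were 5.95-fold, 7.15-fold and 1.45-fold higher in female WT. The part of those cells in the cytokine, chemokine and complement differences was not tested. The neutrophil attractant Cxcl2 was at 31.3, 12.8, 12.4 and 10.1 CPM in female and 1.68, 1.06, 1.001, 2.03 and 0.638 CPM in male WT (log2 fold change -3.46 ± 0.44, edgeR adjusted p = 2.21e-05), and Ccl12, a ligand of Ccr2, at 101 to 183 CPM against 48.1 to 80.5 CPM (log2 fold change -1.20 ± 0.19, edgeR adjusted p = 0.000157). In the range-adjusted fit 5 of the 20 were called, and Il1b in both that fit and the middle range. Il1rn, Cxcl2 and Ccl12 were not called in the middle range (edgeR adjusted p = 0.0576, 0.0891 and 0.369), where Ccl12 had -0.48. Of 14 complement genes C3, the central component, was at 55.98, 28.01, 11.8 and 60.4 CPM in female and 3.699, 6.38, 2.002, 1.74 and 3.19 CPM in male WT (log2 fold change -3.42 ± 0.47, edgeR adjusted p = 5.39e-05), 2 others were called lower and Itgam higher. Pros1, a ligand that bridges dying cells to phagocytes, fell by 1.20 ± 0.17 on the log2 scale (edgeR adjusted p = 9.28e-05) and had -0.73 in the middle range (edgeR adjusted p = 0.217).

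**Figure D4:**
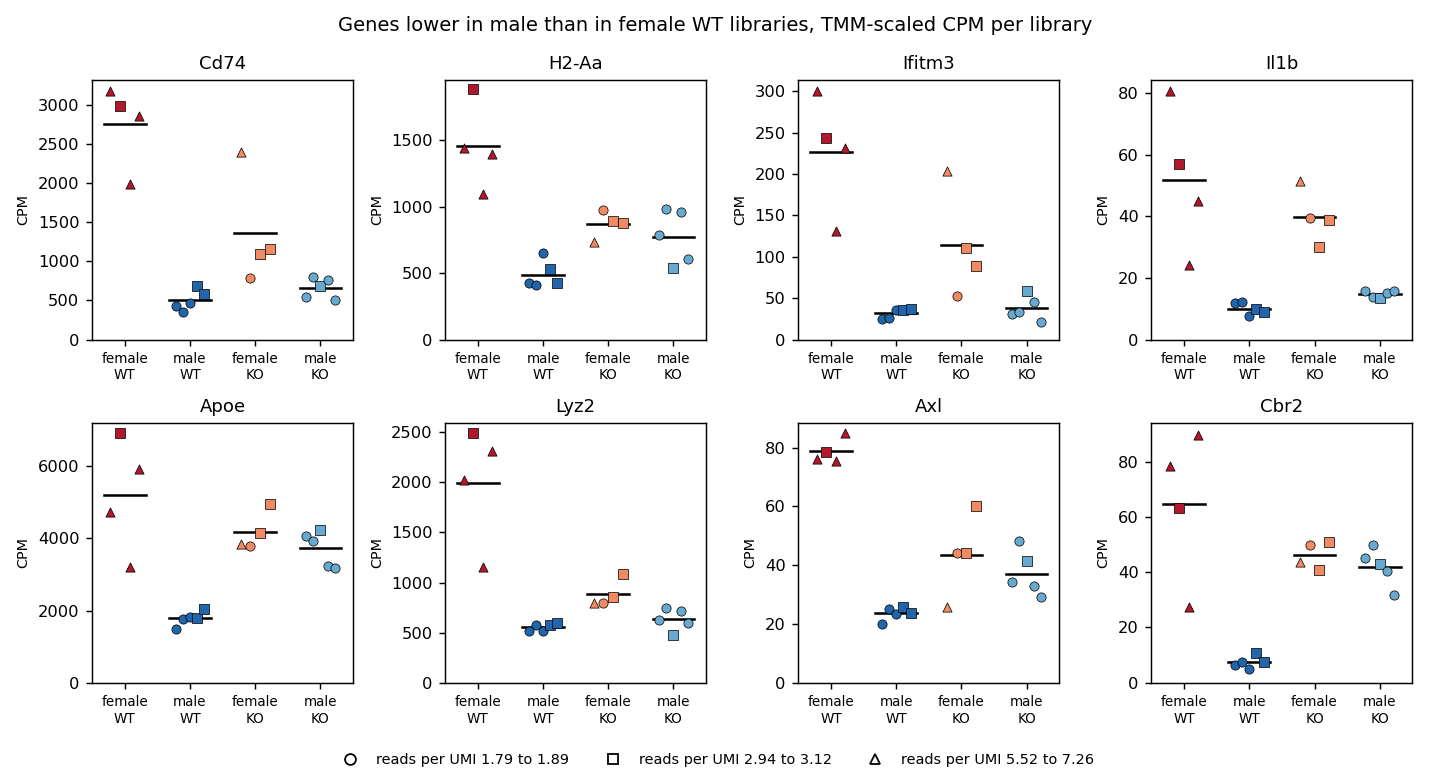
CPM (vertical axes, from 0) of 8 genes in all 18 libraries by group, with 1 point per library, a bar for the group mean and marker shape for the range of reads per UMI. In all 8 panels every male WT library lies below every female WT library, and female WT replicate 39 of the middle range (square) lies with the other female libraries. The KO groups overlap for Cbr2, Apoe, H2-Aa, Axl, Cd74 and Ifitm3, and do not for Lyz2 and Il1b.

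Transcripts of the cytosolic ribosome, most of them short and abundant, were lower in male WT in 56 of 78 tested members and higher in 0, with a median log2 fold change of -0.70. Rpl30 was at 775, 699.5, 1025 and 747 CPM in female and 169, 177, 179.7, 306 and 212 CPM in male WT (log2 fold change -1.96 ± 0.26, edgeR adjusted p = 3.38e-05), and Rps28 at 1780.1, 1329, 1829 and 1581 against 455, 480.4, 721, 534 and 582 CPM (log2 fold change -1.56 ± 0.26, edgeR adjusted p = 0.000308). With the range as a factor 2 (Rpl17 and Rpl30) were lower and 1 higher (Rpl4). The median was -0.22 in that fit and -0.42 in the middle range. Rps28 was called in the middle range and not with the range as a factor (-0.88, edgeR adjusted p = 0.117). Rpl35a had -1.33 ± 0.22 over all libraries (edgeR adjusted p = 0.000299) and -0.19 in the middle range (edgeR adjusted p = 0.647). Ribosomal protein genes have many near-identical pseudogenes, so their counts are uncertain to that extent. Mitochondrial ribosomal proteins had 5 of 75 called higher, 8 lower and a median log2 fold change of 0.02. Their shares lay near those of all genes, of which 6.9% were called higher and 10.2% lower.

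Nuclear genes of oxidative phosphorylation were lower in male WT in 25 of 77 and higher in 1 (Atp5f1), with a median log2 fold change of -0.31. Cox7c, a small subunit of cytochrome c oxidase, was at 185 to 337 CPM in female and 117 to 169.9 CPM in male WT (log2 fold change -0.90 ± 0.16, edgeR adjusted p = 0.000715) and had -0.14 in the middle range. In the range-adjusted fit 1 of the 77 was called. The median of the 77 was -0.11 in that fit and -0.20 in the middle range. Cell division genes were lower in 11 of 27 and higher in 1 (Pcna). Mki67, present in cycling cells, was at 0, 1.601, 8.99 and 28.6 CPM in female and 0.354 to 2.03 CPM in male WT (log2 fold change -3.28 ± 0.66, edgeR adjusted p = 0.00177), with female replicates 31 and 30 above every male library and the others no higher than male libraries. Top2a, which untangles DNA in mitosis, had -1.68 ± 0.42 (edgeR adjusted p = 0.00864) over all libraries and 0.63 in the middle range. Neither gene was called without female WT replicate 30 (edgeR adjusted p = 0.0522 and 0.0681). None of the 27 was called with the range as a factor or in the middle range.

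Other lists had few called members. The called shares of the TGF-beta and sex steroid lists, which had few tested genes, lay above the 17.1% of all genes. Of 13 TGF-beta genes 4 were higher and 1 lower, where the receptor Tgfbr2 was at 2.24 to 8.99 CPM in female and 11.8 to 15.1 CPM in male WT (log2 fold change 1.16 ± 0.32, edgeR adjusted p = 0.0163) and the ligand Tgfb1 fell (log2 fold change -0.88 ± 0.19, edgeR adjusted p = 0.00319), and 0 of the 13 were called with the range as a factor. The list of sex steroid receptors and converting enzymes, which also holds a glucocorticoid receptor, had 7 tested members of 18 listed. No sex steroid receptor was among its called members. The glucocorticoid receptor Nr3c1 (log2 fold change 0.69 ± 0.22, edgeR adjusted p = 0.0323), the reductase Srd5a3 (log2 fold change 0.76 ± 0.21, edgeR adjusted p = 0.0166) and Hsd17b4, which oxidises estradiol (log2 fold change 0.45 ± 0.13, edgeR adjusted p = 0.0175), rose, Hsd17b11 fell, and none of them was called with the range as a factor. Without female WT replicate 30 the calls of Nr3c1, Srd5a3 and Hsd17b4 were lost (edgeR adjusted p = 0.0955, 0.0699 and 0.0564). Those of Nr3c1 and Srd5a3 were also lost without female WT replicate 34 (edgeR adjusted p = 0.102 and 0.0517), that of Nr3c1 without male WT replicate 10 or 37 (edgeR adjusted p = 0.0782 and 0.0524), and that of Tgfbr2 without female WT replicate 39 (edgeR adjusted p = 0.055). Autophagy genes were higher in 5 of 26 and lower in 0, and with the range as a factor only Becn1, an initiator of the process, was called. Of 20 cholesterol genes edgeR, DESeq2 and limma voom each called 0, and 1 was higher and 3 lower at an unadjusted edgeR p under 0.05. Toll-like receptors (1 higher and 1 lower of 17), cathepsins (1 and 1 of 14), lysosomal genes (3 and 2 of 37), p53 targets (2 and 1 of 24), chromatin regulators (1 and 3 of 28) and histone methylation genes (3 and 3 of 36) had shares near or below the 17.1% of all genes. The linker histone gene Hist1h1c was at 58.2, 91.2, 61.3 and 95.2 CPM in female and 206, 147, 232, 254 and 234 CPM in male WT (log2 fold change 1.46 ± 0.18, edgeR adjusted p = 1.3e-05), and was also called with the range as a factor.

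Some of the steepest rises belonged to no list. Drg1, a GTP-binding protein of translation, was at 11.2, 12.01, 10.1 and 8.52 CPM in female and 42.4, 42.9, 48.6, 49.5 and 41.4 CPM in male WT (log2 fold change 2.12 ± 0.29, edgeR adjusted p = 5.7e-05). Mgat2, a Golgi glycosyltransferase, was at 13.4, 13.6, 6.18 and 6.19 CPM in female and 33.97, 52.4, 50.1, 53.6 and 48.1 CPM in male WT (log2 fold change 2.40 ± 0.37, edgeR adjusted p = 0.000153). Otud1, a deubiquitinase, was at 3.87 to 8.96 CPM in female and 19.8 to 26.5 CPM in male WT (log2 fold change 2.04 ± 0.42, edgeR adjusted p = 0.00202). None of the 3 overlapped between the sexes. Female KO replicate 16, in the lowest range, was at 39.3, 42.6 and 16.3 CPM for the 3 genes, against 24.7, 11.8 and 2.58 CPM in female KO replicate 1 of the middle range. With the range as a factor none of the 3 was called (edgeR adjusted p = 0.0732, 0.0861 and 0.242), while in the middle range Mgat2 and Otud1 were and Drg1 was not (1.93, edgeR adjusted p = 0.0529). Of 38 proteasome genes 4 were higher and 5 lower, against 6.9% and 10.2% of all genes. Psma4, a core subunit, was at 40.3, 62.4, 41.03 and 43.4 CPM in female and 15.5, 15.2, 11.01, 15.6 and 19.4 CPM in male WT (log2 fold change -1.60 ± 0.25, edgeR adjusted p = 0.000166). It also fell in KO by 1.91 ± 0.24 (edgeR adjusted p = 9.05e-05).

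The same contrast was made in KO libraries, which share no library with the WT contrast but share its estimate of spread. Sex and range of reads per UMI went partly together in KO as well. The lowest range held 4 male and 1 female KO library, the middle range 1 and 2, and the highest 0 and 1. With the range as a factor 303 genes were called in KO, and the overlap with WT given here was not counted in that fit. In KO 729 of 10616 genes (6.87%) were called, 289 higher (2.72%) and 440 lower (4.14%) in males. Of the genes called in WT 417 were called in KO, 414 of them in the same direction, which is 22.8% of the WT calls and 56.8% of the KO calls. Without the library labelled female KO replicate 33 the KO count was 587 (5.42%), 199 higher (1.84%) and 388 lower (3.58%). It was 1694 without female KO replicate 16, 187 and 341 without female KO replicates 7 and 1, and 428, 441 and 477 without male KO replicates 40, 17 and 6. Of the 5 AP-1 genes Fos, Jun, Junb and Jund were called higher in KO too, with Junb at 484 to 1543 CPM in female and 1649 to 2052 CPM in male KO, a log2 fold change of 1.16 ± 0.25 (edgeR adjusted p = 0.0093). Without replicate 33 Junb (1.14) and Fos (0.84) were still called, and Jun (0.52, edgeR adjusted p = 0.069) and Jund (0.57, edgeR adjusted p = 0.0564) were not. Hspa1a had 1.88 ± 0.41 in KO and 1.93 ± 0.45 without replicate 33 (edgeR adjusted p = 0.00849 and 0.0162). Neutrophil markers summed to 6099, 1743, 1724 and 3307 CPM in female KO (replicates 33, 16, 1 and 7) and 1163, 1362, 1123, 1069.6 and 1094 CPM in male KO (replicates 36, 6, 9, 17 and 40), and 6 of 15 were called lower, or 5 without replicate 33. Of border macrophage genes edgeR and DESeq2 called 0 of 16 in KO and limma voom 4, edgeR called 1 lower without replicate 33, and 1 was higher and 4 lower at an unadjusted edgeR p under 0.05 with it.

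Whether the difference between males and females itself differed between genotypes was tested as the WT contrast minus the KO contrast. It passed for 25 genes (0.235%), 5 positive (0.0471%) and 20 negative (0.188%), and 923 had an unadjusted p under 0.05. Cbr2 had the lowest p. It was 3.03 lower on the log2 scale in male WT but was at 43.7, 49.9, 40.7 and 50.97 CPM in female KO and 45.1, 49.95, 42.8, 40.5 and 31.8 CPM in male KO, a difference of contrasts of -2.86 ± 0.36 (edgeR adjusted p = 0.000835). Pf4 (-1.94 ± 0.32), Apoe (-1.37 ± 0.24), Axl (-1.39 ± 0.24) and Lyz2 (-1.36 ± 0.24) also had negative differences (edgeR adjusted p = 0.0147 for each). In male KO Apoe was at 3172 to 4235 CPM, above every male WT library (1490.2 to 2055 CPM). Hist1h1c was positive, higher in male WT and at 84.98 to 121 and 76.9 to 105 CPM in female and male KO (1.66 ± 0.24, edgeR adjusted p = 0.00408). The neuronal genes Olfm1 and Hpca were lower in male WT and higher in male KO, with differences of -2.99 and -4.03. Without the library labelled female KO replicate 33 Olfm1 was no longer called in KO (1.08, edgeR adjusted p = 0.0776) and Hpca was (adjusted p = 0.0191). All 25 also passed without the library labelled female KO replicate 33, which gave 45 genes. Without female WT replicate 30, 2 genes passed, Cbr2 and Hist1h1c, both among the 25, and without female WT replicate 31 there were 79, of which 23 were among the 25. Leaving out another library gave 11 to 16 genes for female WT replicates 34 and 39, male WT replicates 10, 11, 13 and 14, female KO replicates 1, 7 and 16 and male KO replicates 6 and 17. Of the 25 genes 13 passed with the range as a factor, and 10 on read counts.

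**Figure D5:**
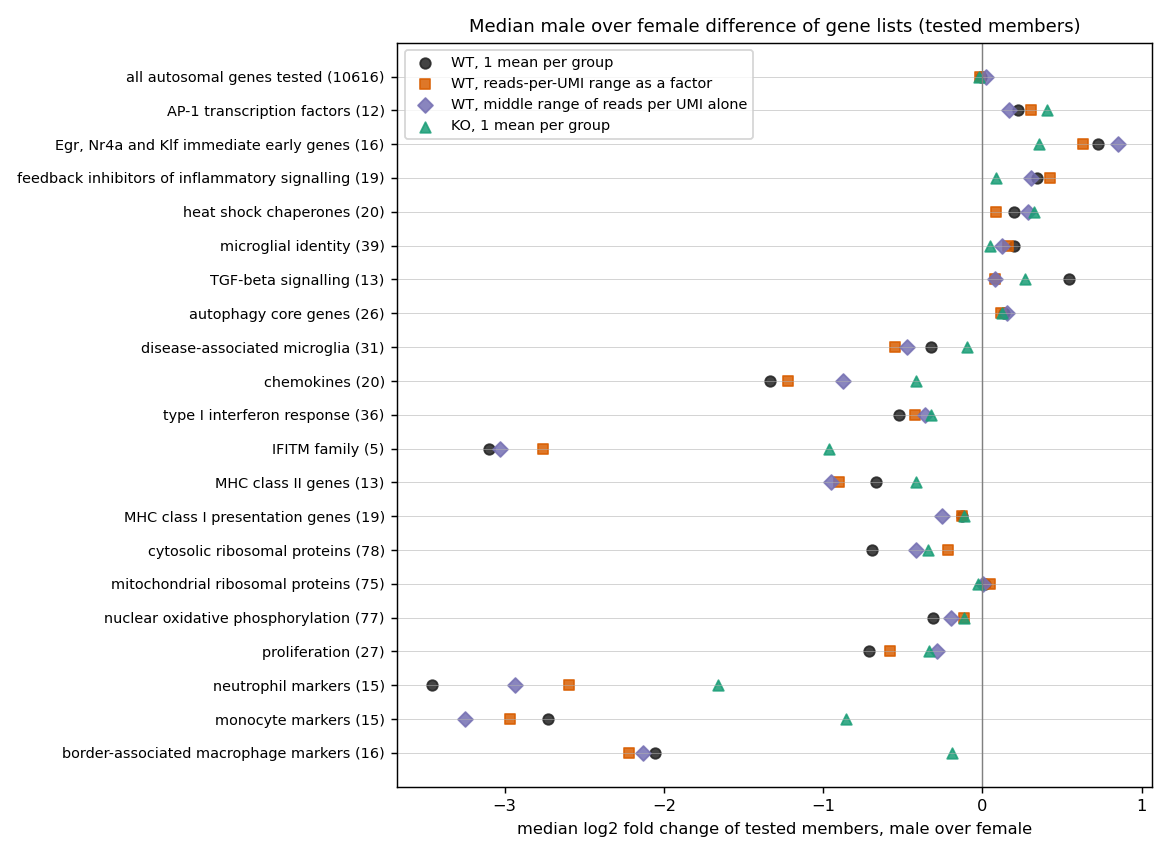
Median male over female log2 fold change (horizontal axis) of the tested members of 20 gene lists and of all autosomal genes tested, with their number in brackets, in the WT fit, the WT fit with the range of reads per UMI as a factor, the WT libraries of the middle range alone, and the KO contrast. Ribosomal medians lie nearer to 0 with the range as a factor (-0.22 against -0.70), while those of monocyte and border macrophage markers do not, and the KO median of border macrophage markers is -0.19.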

How the data were processed

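Bulk MARS-seq libraries were made from 30 ng of RNA of microglia purified from brain, per the labels' protocols. The authors deposited whole-number counts per gene with and without UMI correction, in 2 tables of 55414 genes, and the submitters' processing notes name cutadapt, STAR, HTSeq and the build mm10, without versions. Identifiers were matched to GENCODE M21 (52081 had a symbol, 48079 were autosomal, and matched genes held at least 99.8% of UMIs), and 16 of 34 columns in each table, which match no sample, were not used.

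The UMI-corrected counts of all 18 libraries were fitted with edgeR 4.0.16 (R 4.3.3) with 1 mean per sex and genotype, TMM scaling, filterByExpr and the quasi-likelihood test. P-values were adjusted by Benjamini-Hochberg over the 10948 genes tested and called at 0.05. The fit's coefficient of biological variation was 17.8%. The model was also run on simulated data with known folds, which held no effect of the range of reads per UMI. Marker sums and library measures were compared by exact permutation (scipy 1.17.1). Sums were scaled by the library total alone. Reads per UMI are the ratio of the 2 tables' totals.

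Alternatives were DESeq2 1.42.0, limma voom 3.58.1 with sample weights, sva 3.50.0, DESeq2 size factors, WT libraries alone, no filter, read counts, thinning to 435838 UMIs, reads per UMI as a covariate, a factor or a limit, and each library left out. The fits in the middle range alone and outside it were chosen after seeing the data. The members, gene lists and tests were chosen with earlier results of these data known. Named genes were the 12 steepest called rises and falls among protein-coding genes (mean log2 CPM in WT 3 or more), up to 5 called members of each of 47 lists with up to 3 of the highest level, up to 10 of the lowest p in the difference between genotypes, and defining microglial genes. How strand was treated in counting is not given in the sources used here, so overlapping antisense genes cannot be told apart. One gene of the rule is not reported here.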

Additional observations from a re-analysis of the deposited data

Results flagged for a closer look

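Within groups of 4 or 5 WT libraries, 14 of 224 sets of values held a library that stood apart by Dixon's criterion, where chance gives about 1 in 20. Female WT replicate 34 stood out for neuronal RNA, with a summed level of neuronal markers of 266 CPM against 59.1 to 64.1 CPM in the other female WT libraries, Meg3 at 105 CPM against 2.32 to 17.4 CPM, and astrocyte markers at 463 CPM against 271 to 303 CPM. The same library held Igkc at 502 CPM against 8.99 to 92.8 CPM and Cxcl2 at 31.3 CPM against 10.1 to 12.8 CPM. Female WT replicate 39 stood apart in reads per UMI (2.96 against 6.62 to 7.26), in Hspa1b (44.8 against 13.9 to 15.7 CPM), in Psma4 (62.4 against 40.3 to 43.4 CPM) and in the oligodendrocyte lineage sum (1418 against 1685 to 1725 CPM). Female WT replicate 30 was low in Zfp36l1 (55.7 against 80.9 to 84.0 CPM). Male WT replicate 11 was high in B2m (2776 against 1325 to 1719 CPM), Pros1 (166 against 88.4 to 108 CPM) and Cd163 (4.05 against 1.35 to 1.91 CPM), and male WT replicate 13 was low in Mgat2 (34.0 against 48.1 to 53.6 CPM).

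For 17 named genes the difference between males and females differed between WT and KO by the edgeR test of the difference itself. The log2 differences of contrasts, WT minus KO, were -2.86 for Cbr2, -1.94 for Pf4, -1.37 for Apoe, -1.36 for Lyz2, -1.39 for Axl and -2.82 for Pla2g7, a phospholipase of macrophages. They were -1.90 for Napsa, an aspartic protease, -1.69 for Plbd1, -1.41 for H2-Aa, -1.43 for H2-Eb1 and -2.36 for Ifitm2. In each of these 11 genes the male level was lower in WT, and the KO contrast was closer to 0. Jun (1.21), Egr1 (1.27), Socs3 (1.05) and Hist1h1c (1.66) had positive differences. The neuronal genes Olfm1 (-2.99) and Hpca (-4.03) changed sign between genotypes, at -1.85 and -1.91 in WT and 1.14 and 2.13 in KO, and without the library labelled female KO replicate 33 Olfm1 had 1.08 in KO and was no longer called (edgeR adjusted p = 0.0776). Hpca was not called in WT without female WT replicate 39 (edgeR adjusted p = 0.055). Without female WT replicate 30 only Cbr2 and Hist1h1c of these passed. Jun, Socs3, Ifitm2, Napsa and Egr1 did not pass with the range as a factor (edgeR adjusted p = 0.0734, 0.0833, 0.0607, 0.0639 and 0.0854), and on read counts Axl, Hpca, Ifitm2, Napsa, Socs3, Egr1 and H2-Eb1 did not (edgeR adjusted p = 0.0985 to 0.174 except for Socs3, at 0.081).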

How the results depend on the processing

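No paired analysis was possible because no replicate number is shared between libraries of different groups, so no replicate block could be formed. The count of 1814 genes in WT was 145 (28 higher and 117 lower in males) with log2 reads per UMI as a covariate, 203 (39 and 164) in the middle range alone, 258 (78 and 180) with the range as a factor, 276 (59 and 217) without libraries at 5 or more reads per UMI, 1133 (451 and 682) on read counts and 730 (302 and 428) after thinning, and 1041 to 2011 with 1 library left out, lowest without female WT replicate 30. The fit with the range as a factor gave 110 to 493 genes with 1 WT library left out. In KO the 729 genes became 5 outside the middle range, 327 (215 and 112) within it, 1482 with limma voom, 343 with the covariate, 1275 (660 and 615) with no filter, 303 with the range as a factor, 289 on read counts, 309 after thinning and 187 to 1694 with 1 library left out. The 25 genes whose contrast differed between genotypes became 46 with 1 surrogate variable, 78 with DESeq2, 14 with the covariate, 11 in the middle range, 222 with no filter, 10 on read counts, 10 after thinning and 2 to 79 with 1 library left out, 13 of the 25 passed with the range as a factor, and edgeR called 0 outside the middle range, where 1103 had an unadjusted p under 0.05. DESeq2 size factors and WT libraries fitted alone kept the WT count within 1.5 times. Fewer libraries are compared in the fits by range, and the cause of the other changes was not tested.

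Male over female ratios of marker sums with 1 WT library left out were 0.139 to 0.262 for neutrophils, 0.116 to 0.159 for monocytes, 0.666 to 0.732 for border macrophages, 0.234 to 0.499 for neurons, 1.17 to 1.29 for endothelial and mural cells, 3.95 to 5.93 for choroid plexus and ependyma and 1.32 to 1.45 for mast and dendritic cells. Without female WT replicate 39, 31 or 30 these 7 lists did not pass (exact permutation adjusted p = 0.0561). With a female library left out this is the lowest adjusted p that 7 lists without overlap can reach. Not passing was thus set by the number of libraries and does not show that the differences depend on those replicates. Without female WT replicate 34 the lists passed (exact permutation adjusted p = 0.0491), as astrocyte markers then also had the smallest possible p. Ratios near 1 changed side. Lymphocyte markers had 0.954 on read counts, 0.968 with TMM and 0.960 to 1.10 with 1 library left out, erythroid markers 1.22 on read counts and 0.704 to 1.97, oligodendrocyte lineage markers 0.962 on read counts, 0.992 with TMM and 0.987 to 1.06, and the read total 0.794 to 1.20. Astrocyte markers had 1.18 to 1.44 and also passed without female WT replicate 34.

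Of 97 genes with values in the text 94 were called, and over 2052 gene and setting pairs the direction and the call stayed in 1853, the call was lost in 197 and the direction turned in 2, both for Top2a (0.63 in the middle range and 0.51 without libraries at 5 or more reads per UMI). The value of Csf1r, near 0 and not called, also turned, to -0.055 on read counts. The lost calls were unevenly spread over the settings. Of the 94 genes 47 lost the call with log2 reads per UMI as a covariate and 36 with the range as a factor. With 1 WT library left out 0 to 9 lost it. For 40 of the 94 called, among them Jun, Junb, Fos, Egr1, Zfp36, Socs3, Cd74, H2-Aa, Ifitm3, Apoe, Lyz2, Axl, Cbr2, Ly6c2 and Ccr2, no setting ended the call. UMI totals as low as 458075 limit what can be said of genes at a few CPM.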
